A study of Rattus norvegicus with 5 samples.

Results

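This account follows the antioxidant and glutathione enzymes of a magnetically sorted rat blood fraction labelled as myeloid-derived suppressor cells (MDSCs), immature myeloid cells that can restrain T cells. Members were taken by gene name: a probe belonged to the set where the platform annotation gave exactly 1 gene symbol and that symbol was a glutathione peroxidase (Gpx), glutathione transferase (Gst, Mgst), peroxiredoxin (Prdx), superoxide dismutase (Sod), thioredoxin system gene (Txn), quinone reductase (Nqo), glutaredoxin (Glrx), methionine sulfoxide reductase (Msr), a gene of glutathione synthesis or reduction (Gclc, Gclm, Gss, Gsr), catalase (Cat), sulfiredoxin (Srxn1) or Hmox2. This gave 47 genes with 1 probe each, out of 5990 named genes and 26857 probes on the array. No Srxn1, Msrb or Txnl probe was among them. The names, not the signals, decided membership, although the set was proposed with earlier results of these data known.

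The cells came from 3 tolerant and 2 syngeneic kidney recipients at day 100 after transplantation. Tolerant recipients were LEW.1A rats carrying an MHC-mismatched LEW.1W kidney from donors aged 8 to 12 weeks, with both native kidneys removed on day 7, and had been treated with JJ319, an antibody against CD28, a costimulatory receptor of T cells. Syngeneic recipients were LEW.1A rats carrying a LEW.1A kidney, and no antibody treatment is given for them. In both groups blood was freed of red cells by lysis, beads then removed whatever carried MHC class II or CD3, and a second magnetic step kept CD80- or CD86-bearing cells. Age and sex of the recipients were not given in the sources used here, and the series' design text counts 3 syngeneic recipients where 2 were analysed here. No label links an array to its own recipient, so the p-values reflect only how far these samples spread, which may be technical.

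Oxidants made during respiration and by the NADPH oxidase of phagocytes are removed in steps. Superoxide dismutases turn superoxide into hydrogen peroxide, and catalase, glutathione peroxidases and peroxiredoxins reduce the peroxide. Glutathione and thioredoxin supply the electrons and are themselves restored by reductases that use NADPH, while glutathione transferases attach glutathione to reactive compounds. Many of these genes are targets of the transcription factor NRF2 (Nfe2l2), and in mouse and human MDSCs, reactive oxygen species are among the means by which T cells are restrained.

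Signals are quantile-normalised and on the log2 scale, and differences are tolerant minus syngeneic. The files hold no detection call, so 464 probes for olfactory receptors, genes known mainly from the olfactory epithelium, served as background, which on each array is their 95th percentile. Background so defined was 10.71 to 11.20 in tolerant samples, against 10.73 and 10.80 in syngeneic samples. From 22.6% to 27.2% of an array exceeded it. Median raw intensity ranged from 563 to 757 in tolerant samples and was 798 and 676 in syngeneic samples. Of 7 monocyte and macrophage markers with a probe, 4 (Cd14, Lyz2, Fcgr3a and Adgre1) were above background on all 5 arrays, whereas Itgam and Ccr2 were at background on syngeneic 2. Cx3cr1 was at background on tolerant 2 and tolerant 3 and above it on the other arrays, syngeneic 2 included. Syngeneic 2 was the array least like the rest, with correlations of 0.83 to 0.85 to the other 4, each of which reached 0.89 to 0.92 with its nearest array.

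Of the 47 genes, 20 (42.6%) were above background on all 5 arrays, against 22.6% of all named genes. A further 20 (42.6%) were above it on none, against 52.2% of all named genes, and 7 on some arrays only. The 20 without signal were Gpx1, Gpx2, Gpx3, Gss, Gsta1, Gsta2, Gsta3, Gsta5, Gstm2, Gstm3, Gstm5, Gstm7, Gsto2, Gstt2, Msra, Nqo2, Sod2, Txndc2, Txndc8 and Txndc9, with values from 8.29, the floor, to 10.98. A probe at background gives no measure of its transcript, so no fold is given for these 20. Most transferases fell in this class, 10 of 13, whereas all 6 peroxiredoxins were above background on all 5 arrays.

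No antioxidant gene passed the test between tolerant and syngeneic cells. Of the 47 genes, 26 reached the signal filter, a mean no lower than the median probe, and were tested, and 0 of 26 passed an adjusted p of 0.05 (limma, Benjamini-Hochberg over all 13428 probes tested), where 0.0447% of all probes passed. The smallest adjusted p was 0.91. An unadjusted p under 0.05 was also reached by 0 of the 26 in limma, where 5.37% of all probes reached it (1.99% higher and 3.38% lower in tolerant cells). Among the 26, 13 were higher and 13 lower in tolerant cells, with a median difference of 0.02, against 0.004 over all tested probes. These counts cover the members that passed the signal filter, not all 47.

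The balance of directions depended on the scaling. With arrays scaled to a common median in place of quantile normalization, 9 of 27 tested members were higher and 18 lower, with a median of -0.23, while the median of all probes also moved, to -0.16. Without normalization the split was 8 higher and 19 lower, with a median of -0.44 against -0.37 over all probes. Relative to all probes the members' median was therefore -0.06 under both of these settings.

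**Figure D1:**
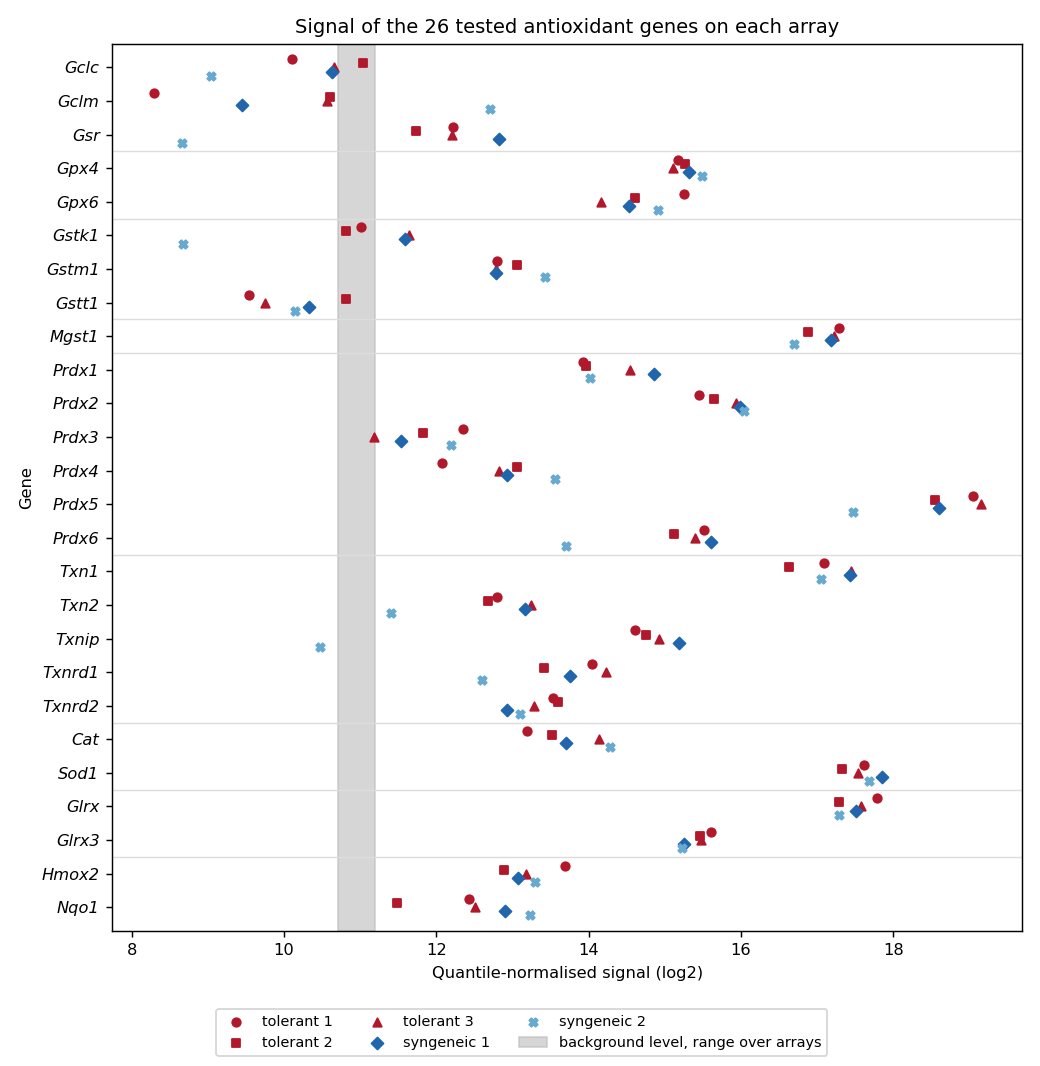
Quantile-normalised log2 signal (x axis) of the 26 tested antioxidant genes (y axis, grouped by role) on each array; red symbols are tolerant arrays, blue symbols are syngeneic arrays, and the grey band spans the background levels of the arrays. Txnip and Gsr show syngeneic 2, the pale cross, below the band and the other 4 arrays above it, spanning 0.57 for Txnip and 1.09 for Gsr. Genes such as Gpx4, Sod1 and Glrx3 have all 5 arrays within 0.513 of each other.

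Complete separation of the groups, with every tolerant value on one side of both syngeneic values, was seen for 6 of the 26 genes, or 23.1%, where 20.2% of all tested probes were so separated. The share is close to that of the table as a whole. Tolerant values were above for Glrx3 and Txnrd2, a direction shown by 9.74% of all tested probes, and below for Gpx4, Nqo1, Prdx2 and Sod1, a direction shown by 10.4%. Differences among the 26 ran from -1.25 (Gclm) to 1.94 (Txnip), with a median size of 0.36, against 0.43 over all tested probes.

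Promoter letters were examined because NRF2 is known to act through the antioxidant response element. RefSeq windows from 250 bases before to 50 after the gene start (build GRCr8) matched 40 of the 47 genes. The core letters TGACNNNGC, searched on both strands, were present in 13 of the 40 (32.5%), against 13.1% of 27457 genes with such a window. Among genes above background on all arrays, 5 of 19 held it. A stricter form, TGACTCAGC, which is contained in the core, was present in Prdx1 alone among the 40 genes (2.5%), and in 0.484% of all genes. The 4 stretches below hold the upstream matches of genes with signal on at least 1 array, for comparison of the sites; capitals mark the match, which lies on the reverse strand of each gene, so that it reads as the reverse complement of the motif.
Prdx1: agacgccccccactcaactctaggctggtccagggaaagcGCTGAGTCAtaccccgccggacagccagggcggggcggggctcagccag
Gclm: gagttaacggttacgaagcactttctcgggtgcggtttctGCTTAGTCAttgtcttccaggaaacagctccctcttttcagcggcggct
Txnrd1: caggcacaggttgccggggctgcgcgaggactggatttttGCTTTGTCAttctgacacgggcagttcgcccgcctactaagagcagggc
Hmox2: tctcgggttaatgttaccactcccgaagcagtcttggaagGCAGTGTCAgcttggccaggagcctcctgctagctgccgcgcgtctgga

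These stretches lie at chr5:135383731-135383819 (plus strand) for Prdx1, chr2:213031923-213032011 (plus strand) for Gclm, chr7:22755934-22756022 (minus strand) for Txnrd1 and chr10:11337659-11337747 (minus strand) for Hmox2. Their matches begin 135, 172, 78 and 95 bases before a gene start. For Txnrd1 and Hmox2 a further window, at another start of the gene, holds no match. Prdx4 and Prdx5 also held a match, close to the gene start. The fitted differences of these 6 genes had both signs: Prdx5, Txnrd1 and Hmox2 were above 0, and Gclm, Prdx4 and Prdx1 below 0. Gclm was above background on syngeneic 2 alone, so its sign is not a measured one. In fits with other processing or with an array left out, the sign of Hmox2 turned in 5 of 14. The signs of Prdx1 and Gclm turned in 1 fit each. A match is a description of letters and not of binding.

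None of the genes of glutathione synthesis and reduction was above background on all arrays, though Gsr was above it on 4 of 5. Gclc encodes the catalytic subunit of glutamate-cysteine ligase, the rate-limiting enzyme of glutathione synthesis. It was at 10.11, 11.04 and 10.65 in tolerant cells and 10.63 and 9.05 in syngeneic cells, above background only on tolerant 2. Gclm, the modifier subunit, was at 8.29, 10.61 and 10.57 in tolerant cells and 9.45 and 12.70 in syngeneic cells. Its only value above background was thus that of syngeneic 2. With all tolerant arrays and syngeneic 1 at background, no fold is given (fitted difference -1.25, limma, adjusted p = 0.91). Without syngeneic 2 both groups are at background and no direction is given.

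Gsr, glutathione reductase, which regenerates reduced glutathione with NADPH, gave one of the largest gaps within a group. It was at 12.22, 11.73 and 12.21 in tolerant cells and at 12.82 and 8.66 in syngeneic cells. The 2 syngeneic arrays lay on opposite sides of the tolerant ones, and syngeneic 2 was at background. The fitted difference of 1.31 (SE 1.15, 95% interval -1.48 to 4.11, adjusted p = 0.91) was -0.73 without syngeneic 2. Without syngeneic 1 the remaining syngeneic value is at background, and Gsr was at least 2.36-fold higher in tolerant cells (adjusted p = 0.067).

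Among glutathione peroxidases, Gpx4, which reduces lipid hydroperoxides within membranes, was one of the steadiest genes of the set. It was at 15.18, 15.26 and 15.10 in tolerant cells and 15.32 and 15.49 in syngeneic cells. All tolerant values were below both syngeneic values, but by a mean of only -0.23 (SE 0.38, 95% interval -1.14 to 0.69). The probe annotated as Gpx6, a family member described in rat olfactory tissue, was well above background at 15.25, 14.61 and 14.16 in tolerant cells and 14.53 and 14.91 in syngeneic cells, with overlapping groups. The probes for Gpx1, the common cytosolic form, and for Gpx3, the secreted form, were at background on all arrays. Whether these probes detect their transcripts was not tested.

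Of the cytosolic and kappa transferases, only Gstm1, a mu class enzyme, exceeded background throughout. It was at 12.79, 13.06 and 12.78 in tolerant cells and 12.78 and 13.42 in syngeneic cells, a difference of -0.22 (SE 0.42). Gstk1, the kappa enzyme of mitochondria and peroxisomes, was at 11.02, 10.81 and 11.64 in tolerant cells and 11.59 and 8.67 in syngeneic cells, above background on tolerant arrays 2 and 3 and on syngeneic 1. Without syngeneic 2 its difference of 1.03 became -0.43. Gstt1, a theta class enzyme, exceeded background on tolerant 2 only, and its groups overlapped. Genes of the alpha, mu and theta classes are close relatives, and cross-hybridisation between their probes cannot be judged from the files.

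Mgst1, the membrane-bound microsomal transferase, had one of the most even signals. It was at 17.28, 16.88 and 17.22 in tolerant cells and 17.18 and 16.70 in syngeneic cells. The difference was 0.19 (SE 0.41), and it was -0.33 to -0.05 under median scaling, without normalization or without syngeneic 2.

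Peroxiredoxins, thiol enzymes that reduce peroxides, were above background on all 5 arrays in all 6 cases. The lowest and highest differences were -0.59 for Prdx4 and 0.88 for Prdx5. Prdx5, found in mitochondria, peroxisomes and cytosol, was at 19.05, 18.55 and 19.15 in tolerant cells and 18.60 and 17.47 in syngeneic cells. Its groups overlapped, since tolerant 2 lay just under syngeneic 1. The difference of 0.88 (SE 0.50, 95% interval -0.35 to 2.10, limma, adjusted p = 0.91) was 0.31 without syngeneic 2 and 1.46 without syngeneic 1. These were its extremes over the 14 alternative fits. Fits that changed only the floor, the filter or the variance estimate repeat the main estimate, so they could not turn its sign. Prdx6, the 1-cysteine form, which is reduced with the help of glutathione, was at 15.51, 15.12 and 15.39 in tolerant cells and 15.61 and 13.70 in syngeneic cells. Syngeneic 2 alone was low, and without it the difference of 0.69 was -0.27.

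Prdx2, the cytosolic form that is abundant in red cells, was at 15.45, 15.65 and 15.94 in tolerant cells and 15.99 and 16.04 in syngeneic cells. Tolerant values were all below the syngeneic ones, by a mean of -0.34 (SE 0.39, 95% interval -1.29 to 0.62). The difference was between -0.88 and -0.22 over the alternative fits, some of which repeat the main estimate. Prdx1, another cytosolic form, was at 13.92, 13.97 and 14.54 in tolerant cells and 14.86 and 14.02 in syngeneic cells. Prdx4, the form of the endoplasmic reticulum, was at 12.08, 13.06 and 12.83 in tolerant cells and 12.93 and 13.56 in syngeneic cells, with overlap through tolerant 2. Prdx3, the mitochondrial form, ranged from 11.18 to 12.35 in tolerant cells and stood at 11.54 and 12.19 in syngeneic cells, a difference of -0.08.

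Beta globins, unlike the other red cell markers, lay at background in tolerant cells and above it in syngeneic cells. Of 6 erythroid markers with a probe, the beta globins Hbb and Hbb-b1 were at background on all tolerant arrays and above it on both syngeneic arrays, and Gata1, Alas2 and Epor were at background on all 5. Slc4a1, the anion exchanger of red cells, was above background on tolerant 1, at 11.86, and on syngeneic 2, at 10.94. The summed linear signal of the 6 probes, which on syngeneic arrays is mainly that of the globins, was between 2862 and 5651 on tolerant arrays, against 49221 on syngeneic 1 and 2343940 on syngeneic 2. For the antioxidants known to be rich in red cells, the values on syngeneic 1 and syngeneic 2 were 15.99 and 16.04 for Prdx2, 13.70 and 14.28 for Cat, and 17.85 and 17.68 for Sod1. The part of red cells in these values was not tested, and fewer cells of a type and less RNA per cell cannot be told apart in such bulk samples.

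The thioredoxin system held the largest difference of the set. Txnip, which binds thioredoxin and restrains it and also limits glucose uptake, was at 14.61, 14.76 and 14.93 in tolerant cells and 15.18 and 10.47 in syngeneic cells. The other 4 arrays lay within 0.57 of each other, and syngeneic 2 was at background. The difference of 1.94 (SE 1.28, 95% interval -1.17 to 5.05, adjusted p = 0.91) was -0.42 without syngeneic 2. With syngeneic 1 left out, Txnip was the 1 member called (adjusted p = 0.047, limma), in a fit in which 0.588% of all probes passed and the lone syngeneic array is assumed to vary like the tolerant ones. The remaining syngeneic value is at background, so the size is a bound, at least 15.8-fold higher in tolerant cells.

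Txn1, the cytosolic thioredoxin, was at 17.09, 16.63 and 17.45 in tolerant cells and 17.43 and 17.05 in syngeneic cells, a difference of -0.18 (SE 0.44). Txn2, the mitochondrial thioredoxin, was at 12.79, 12.68 and 13.24 in tolerant cells and 13.16 and 11.40 in syngeneic cells, so that syngeneic 2 was again the low array. The reductases that recharge them differed in how the arrays fell. Txnrd1, the cytosolic reductase, was at 14.05, 13.42 and 14.23 in tolerant cells and 13.76 and 12.60 in syngeneic cells, a difference of 0.72 (SE 0.53) that was 0.14 without syngeneic 2. Txnrd2, the mitochondrial reductase, was at 13.53, 13.60 and 13.29 in tolerant cells and 12.93 and 13.10 in syngeneic cells. Every tolerant value of Txnrd2 was above both syngeneic ones, by a mean of 0.46 (SE 0.38, 95% interval -0.48 to 1.39), and the difference was 0.52 without syngeneic 2, 0.38 without syngeneic 1 and -0.06 without normalization between arrays.

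Sod1, the cytosolic superoxide dismutase, was at 17.61, 17.33 and 17.54 in tolerant cells and 17.85 and 17.68 in syngeneic cells. The groups did not overlap, at a mean difference of -0.27 (SE 0.38, 95% interval -1.20 to 0.66). Sod2, the mitochondrial form, was at background on every array, and Sod3, the extracellular form, exceeded it on syngeneic 1 only, at 10.75, and was not tested. Catalase, the peroxisomal enzyme that splits hydrogen peroxide, was at 13.19, 13.52 and 14.13 in tolerant cells and 13.70 and 14.28 in syngeneic cells, with overlap through tolerant 3.

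Glutaredoxins, small proteins that use glutathione to reduce protein disulfides, were close between the groups. Glrx was at 17.79, 17.28 and 17.58 in tolerant cells and 17.51 and 17.28 in syngeneic cells. Glrx3, which takes part in handling iron-sulfur clusters, was at 15.60, 15.47 and 15.47 in tolerant cells and 15.25 and 15.23 in syngeneic cells. The groups were separate for Glrx3, with a mean difference of 0.27 (SE 0.37, 95% interval -0.64 to 1.18). The sign of both glutaredoxins turned under median scaling and without normalization, to as low as -0.40 for Glrx and -0.23 for Glrx3.

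Nqo1, a quinone reductase and a standard readout of NRF2 activity, had the smallest unadjusted p of the 26 (0.10). Its signal was 12.44, 11.48 and 12.50 in tolerant cells and 12.90 and 13.23 in syngeneic cells. All tolerant values were below both syngeneic values, by a mean of -0.93 (SE 0.48, 95% interval -2.10 to 0.25, adjusted p = 0.91), a linear ratio of 0.527. The difference was between -1.40 and -0.61 over the 14 alternative fits, some of which repeat the main estimate. Hmox2, the constitutive haem oxygenase, was at 13.69, 12.89 and 13.18 in tolerant cells and 13.07 and 13.29 in syngeneic cells, with overlapping groups and a difference of 0.08 (SE 0.43).

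**Figure D2:**
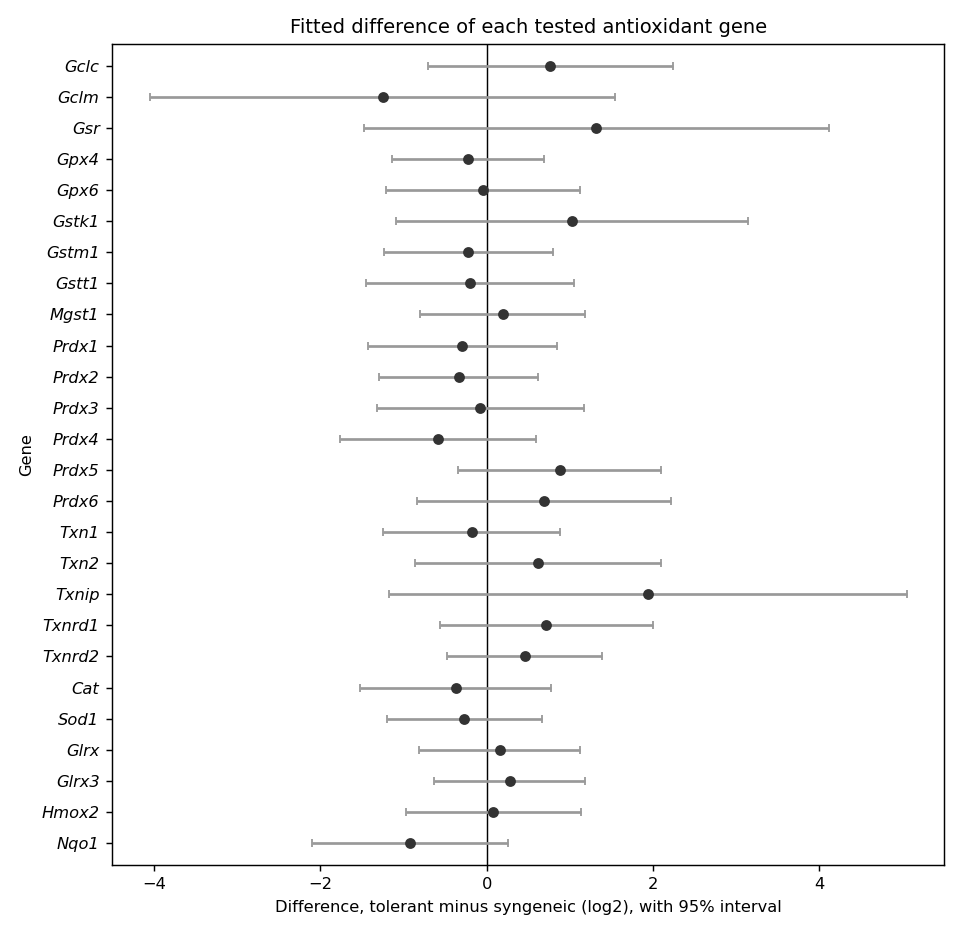
Fitted difference, tolerant minus syngeneic on the log2 scale (x axis), of the 26 tested genes (y axis), with points for the estimate and bars for the 95% interval from limma. Every interval spans 0, and those of Txnip, Gsr, Gclm and Gstk1 are the widest.

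The intervals set how much these arrays can show. For the 20 genes measured on all arrays, differences lay between -0.93 and 0.88 with SEs from 0.37 to 0.63, and the bounds of the 95% intervals reached from -2.10 to 2.21. For none of the 20 did the interval stay within a 2-fold change in both directions, and it did so for 4.73% of all 4459 probes tested and measured on all arrays. A change of 2-fold therefore lay inside at least 1 side of the interval for each of them. The median size of the difference was 0.29 for the 20 genes and 0.28 for those 4459 probes, and the median SD among tolerant arrays was 0.31 and 0.26.

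The spread within the syngeneic group was carried by syngeneic 2. On that array 9 of the 26 genes (34.6%) lay over 1 from the mean of the other 4 arrays, against 33.6% of all tested probes. Of these, 8 were low and Gclm was high. The low genes measured on all 5 arrays were Prdx6 (-1.71 from the mean of the other 4), Txn2 (-1.57), Prdx5 (-1.37) and Txnrd1 (-1.26). Txnip and Gsr were at background on syngeneic 2 alone, so they lay at least 4.06 and 1.44 below the other arrays. Gstk1, Gclc and Gclm were at background on other arrays as well and have no measured distance. Among genes above background on all arrays, 4 of 20 members lay that far out on syngeneic 2, against 17.6% of such probes. On the other arrays 3.85% to 15.4% of the 26 genes lay that far out, against 16.5% to 24.5% of all tested probes. For genes above background on all arrays, the median distance of syngeneic 2 from the other 4 was 0.42 for members and 0.46 for all such probes.

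**Figure D3:**
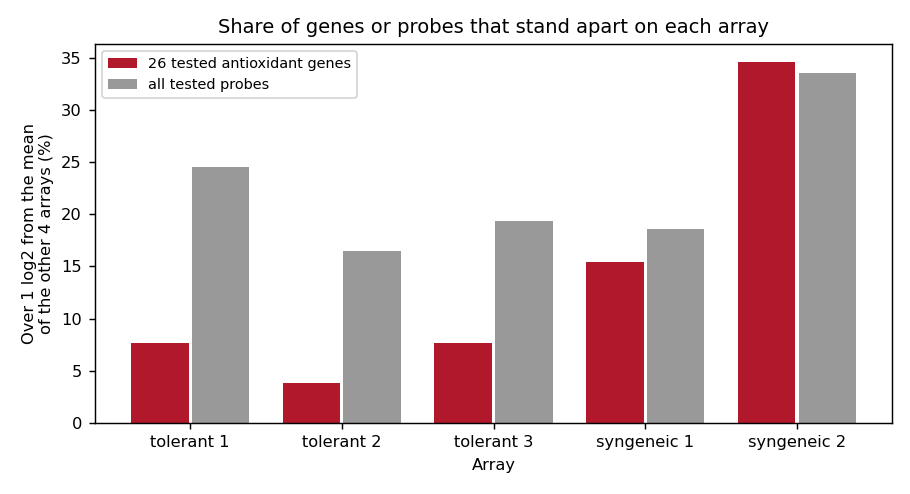
Share (y axis, percent) of the 26 tested antioxidant genes (red) and of all tested probes (grey) that lay over 1 log2 unit from the mean of the other 4 arrays, for each array (x axis). The red bar is 34.6% on syngeneic 2 and between 3.85% and 15.4% on the other arrays.

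Without syngeneic 2, the fitted sign turned for 11 of the 26 genes, among them Gclc and Gclm at background, and 0 differed by more than 1, whereas 4 did with all arrays (Gclm, Gsr, Gstk1 and Txnip). The median size of the difference went from 0.36 with all arrays to 0.27 without syngeneic 2 for members, and from 0.43 to 0.42 over all probes. In that fit 0 of 26 passed in limma, as did 0% of all probes, and 0 of 26 reached an unadjusted p under 0.05, which 4.14% of all probes reached; the members' median was -0.11 against 0.02 over all probes. Without syngeneic 1, 10 genes had a fitted difference of more than 1 and 8 of 26 reached an unadjusted p under 0.05 in limma, as did 16.3% of all probes. In 5 of the 10, and in 5 of the 8, all arrays of 1 group were at background. The median size of the difference without syngeneic 1 was 0.49 for members and 0.69 over all probes. The shares of all probes whose sign turned or whose difference exceeded 1 were not computed. Genes whose value moved least between the fits without syngeneic 2 and without syngeneic 1 were Glrx3 (0.26 and 0.29), Prdx2 (-0.30 and -0.36), Txnrd2 (0.52 and 0.38) and Sod1 (-0.33 and -0.19).

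**Figure D4:**
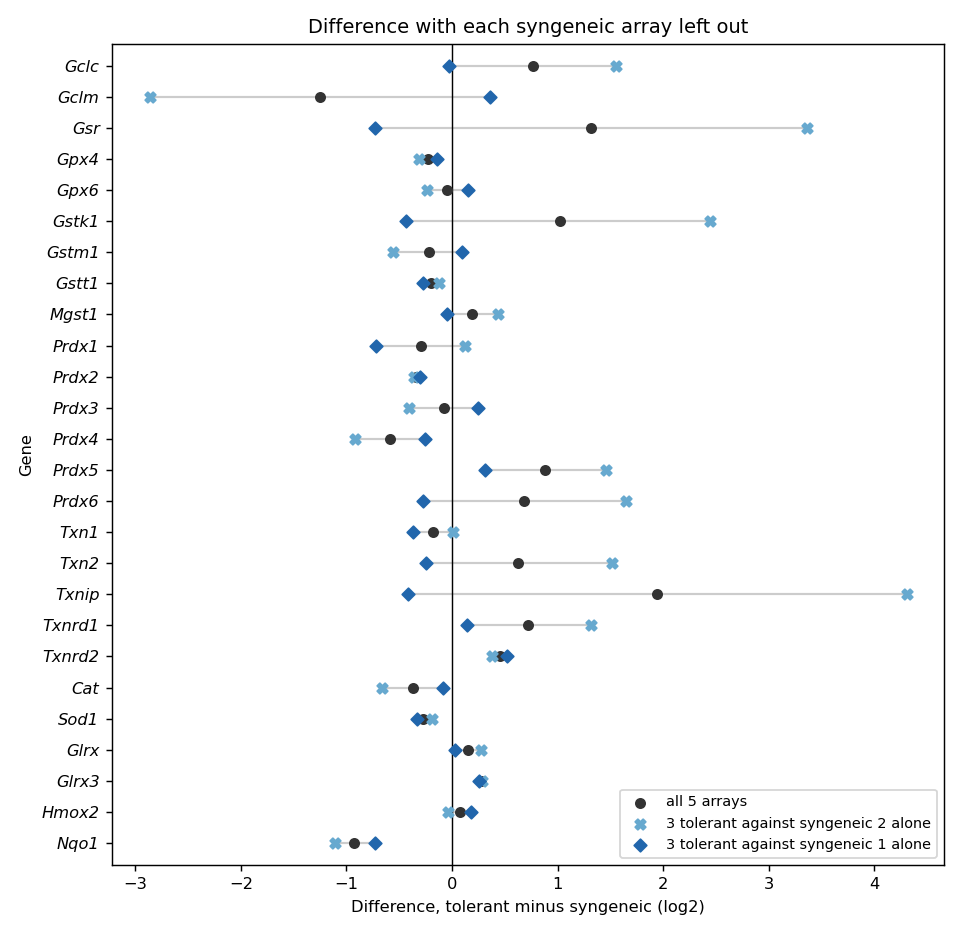
Difference, tolerant minus syngeneic on the log2 scale (x axis), of the 26 tested genes (y axis) from all 5 arrays (black), from the 3 tolerant arrays against syngeneic 2 alone (pale crosses) and against syngeneic 1 alone (blue diamonds). Pale crosses of Txnip, Gsr and Gstk1 rest on a syngeneic 2 value at background. The crosses and diamonds of Gclc and Gstt1 rest on syngeneic values at background, and those of Gclm on tolerant values at background. The positions of all these points are not measured sizes. The points lie close together for Glrx3, Prdx2 and Txnrd2.

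Other genes of the same chemistry gave no call with all 5 arrays and quantile normalization. Among regulators and further targets of NRF2, 15 of 24 listed genes had a named probe and 11 were tested: 0 passed, 7 were higher and 4 lower, with a median of 0.41. Without syngeneic 2 this turned to 2 higher and 9 lower, with a median of -0.58. Nfe2l2 itself was at 15.56, 15.35 and 16.17 in tolerant cells and 15.86 and 16.10 in syngeneic cells, and its inhibitor Keap1 at 12.24, 12.31 and 12.16 in tolerant cells and 12.00 and 12.35 in syngeneic cells, so neither separated the groups. Abcc1, an exporter of glutathione conjugates, was at 9.83, 10.73 and 10.58 in tolerant cells and no higher than 9.03 in syngeneic cells (unadjusted p = 0.022, adjusted p = 0.85, limma). It was above background on tolerant 2 alone, so no fold is given. Fth1, the ferritin heavy chain, differed by -0.44 (SE 0.41).

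Of 17 listed oxidant sources 8 were tested, and 0 passed, with 6 higher, 2 lower and a median of 0.54. The 6 include Dao, at background on all arrays. Without syngeneic 2, 7 were tested, with 3 higher, 4 lower and a median of -0.03. Nos2, the inducible nitric oxide synthase, was at 12.05, 8.44 and 9.56 in tolerant cells and 12.68 and 14.58 in syngeneic cells, a difference of -3.61 (SE 1.14, adjusted p = 0.82). It exceeded background on both syngeneic arrays but on only 1 of 3 tolerant arrays, so the size is not fully measured. Its adjusted p ranged from 0.013 to 1.00 over the alternatives and passed in 1 of them, without normalization between arrays (-4.21). Cyba, the p22 subunit of NADPH oxidase, was at 17.96, 17.64 and 17.60 in tolerant cells and 17.47 and 16.61 in syngeneic cells (difference 0.69, SE 0.45). Cybb, the catalytic subunit, was named after its values were seen: it was at 14.00, 13.82 and 14.97 in tolerant cells and 14.70 and 9.73 in syngeneic cells, and was at background on syngeneic 2, as Txnip and Gsr were.

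In the remaining lists 0 genes passed. Of NADPH-supplying enzymes 3 were tested, with 2 higher and 1 lower and a median of 0.14, but with 0 higher and 3 lower without syngeneic 2. Among them were Tkt, transketolase, at 12.72, 11.61 and 12.74 in tolerant cells and 13.44 and 8.29 in syngeneic cells, and Taldo1, transaldolase, which differed by -0.26 (SE 0.43). For glutathione turnover and methylglyoxal removal 9 of 10 tested genes were higher, with a median of 0.19, and 6 of 10 without syngeneic 2, with a median of 0.11. The 9 include Oplah, at background on all arrays, and Cth, above it on tolerant 1 alone. Hagh, which releases glutathione in methylglyoxal removal, differed by -1.15 (SE 0.64, limma, adjusted p = 0.91) and Anpep, an aminopeptidase, by 0.41 (SE 0.41). Hagh was at background on tolerant 1, at 9.89, so the size of its difference is not fully measured. Redox chaperones and further redox proteins had 8 higher and 4 lower of 12, with a median of 0.18, which turned to 4 higher and 8 lower, with a median of -0.24, without syngeneic 2. Aifm1, a mitochondrial flavoprotein, differed by -0.57 (SE 0.42), and Mt3, a metallothionein counted as lower but at background on all arrays, is given no fold.

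Marker sums of other blood cells, and of monocytes and macrophages, also differed between the groups. Of 9 NK cell markers with a probe, at most 1 was above background on a tolerant array, against 8 and 7 on the syngeneic arrays, with summed linear signals of 5359 to 6797 in tolerant cells and 158349 to 184757 in syngeneic cells. The 7 neutrophil markers summed to between 41585 and 176834 in tolerant cells and to 834305 and 2339960 in syngeneic cells. The 8 T cell markers summed to between 15737 and 20899 in tolerant cells and to 134513 and 134735 in syngeneic cells. Of these markers, 7 were lower and 1, Cd4, was higher in tolerant cells. The groups overlapped for Cd4, Cd8a and Thy1, and Cd4 and Cd8a were at background on syngeneic 2. B cell markers, 2 with a probe, summed to between 28041 and 187756 in tolerant cells and to 5866 and 16688 in syngeneic cells. The 7 monocyte and macrophage markers summed to between 1022680 and 1887230 in tolerant cells and to 866347 and 685617 in syngeneic cells. Of these, 5 of 7 were higher in tolerant cells, and 3 of 7 without syngeneic 2. A linear sum follows its brightest probes and does not speak for every marker of a list. The brightest were Lyz2 for monocytes and macrophages, S100a8 and S100a9 for neutrophils, Cd79b for B cells and, on syngeneic arrays, Nkg7 for NK cells. Of 2 platelet markers, Ppbp was above background on syngeneic 2 alone. The part of these cells in the antioxidant values was not tested.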

How the data were processed

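RNA was measured with a 1-colour Applied Biosystems array of oligonucleotide probes. The deposited raw table holds linear intensities, as read from each array, with background correction by the scanner not stated in the labels. The deposited value table holds log2 signals that the authors had quantile normalized: they differed from quantile-normalised raw intensities by at most 0.000102. Starting from the intensities, quantile normalization was repeated, a floor was set at the 10th percentile (8.29 as log2), and log2 was taken. One array lacked a value for 1 probe, which was dropped. Probes with a mean at or above the median (9.40), 13428 in all, were fitted with limma 3.58.1 in R 4.3.3 (lmFit, eBayes, Benjamini-Hochberg adjustment, 95% intervals), and the fit was tested on simulated data. The number of arrays limits the precision. No batch label was used.

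Probe names come from the platform's old annotation in GEO (6104 probes with 1 symbol, 70 with several, 20683 unlisted); all 47 Entrez identifiers matched RefSeq under the same symbol. The members and lists were chosen with earlier results of these data known. Members named with values were above background on all 5 arrays or had one of the 2 smallest p of their role (Gclm, Gstt1 and Sod3 were added after their values were seen); in each further list the 2 smallest p and any unadjusted p under 0.05 are named, and genes outside the rule, named after their values were seen, are Nfe2l2, Keap1, Cybb and the markers. The background rule as planned named olfactory receptors by older symbols, which matched too few probes, so the current symbols were used. Where all arrays of 1 group lay at background and all of the other above it, the fold is a bound. It is the brighter mean over the dimmer mean, with dim values raised to background.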

Additional observations from a re-analysis of the deposited data

How the results depend on the processing

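The count of 0 members past an adjusted p of 0.05 held under all alternatives except 1: leaving out single arrays gave 0 to 1 (Txnip, without syngeneic 1). Over all probes the count of 6 became 53 under median scaling, 81 without normalization, 14 with a mean-variance trend, and 0 without the signal filter, with array weights and with the replicate block, and ranged from 0 to 79 when single arrays were left out. The members' median of 0.02 became -0.23 under median scaling and -0.44 without normalization, and ranged from -0.15 to 0.13 when single arrays were left out. Whether the number labels pair the arrays cannot be told, since the deviations of only 2 syngeneic arrays from their mean mirror each other. Deviations of tolerant 1 and syngeneic 1 correlated at -0.103 and those of tolerant 2 and syngeneic 2 at 0.0154. With the replicate block the members' median was 0.14. Of 499 gene values under alternatives, 480 kept direction and side of the threshold or moved by less than the spread between replicates, 17 moved by more and 2 crossed the threshold (Txnip without syngeneic 1 and Nos2 without normalization). The sign of 8 of 26 tested members held throughout (Cat, Gpx4, Nqo1, Prdx2, Prdx4, Prdx5, Sod1 and Txnrd1). Both counts include fits that could not change the estimate of a gene above the floor. These changed only the floor, the filter or the mean-variance trend, or started from the deposited values. The list counts without a syngeneic array and the bounds in those fits were added after seeing the data. Averaging a gene's probes was not run, since each member has 1 probe. The cause of these changes was not tested.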

Other observations

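The probe of the array whose annotation lists 2 glutathione transferase genes of the pi class, and which therefore was no member, was above background on all 5 arrays. It was at 13.34, 14.18 and 13.80 in tolerant cells and 14.93 and 15.87 in syngeneic cells. All tolerant values were below both syngeneic values, by a mean of -1.63 (SE 0.50, 95% interval -2.83 to -0.42), a linear ratio of 0.324, and it did not pass (limma, unadjusted p = 0.016, Benjamini-Hochberg adjusted p = 0.78). Which of the 2 genes the probe read was not tested.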
